A study of Homo sapiens with 12 samples.

Results

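GFI1 expression in attached A549 cells was described from 6 RNA-Seq libraries, the 3 labelled attached A549 GFI1 and the 3 labelled attached A549 control, out of 12 libraries in the series. The other 6 libraries came from control and GFI1-expressing A549 cells kept floating and were used for the shared estimate of spread and for 1 comparison. A549 is an established human lung adenocarcinoma line that grows as an adherent epithelial sheet in RPMI1640 with 10% FBS. The GFI1 cells had received a lentivirus with GFI1 under the hPGK promoter and GFP, and were sorted for GFP, with no cloning step described. The labels do not state whether the attached control cells carried an empty vector, so effects of transduction and of GFI1 cannot be told apart. Nothing in the labels says that replicates came from separate cultures, so p-values measure only the spread between these libraries. The question was which gene programmes differed between GFI1-expressing and control cells while the cells were still attached, beyond adhesion, replication and the interferon response.

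GFI1, a DNA-binding protein with zinc fingers that acts in early blood development, mostly represses its targets. Its N-terminal SNAG domain recruits the histone demethylase LSD1 (KDM1A) with CoREST proteins and histone deacetylases. Its zinc fingers bind a DNA core of AATC. In the embryo it takes part in silencing the endothelial programme as blood cells leave the vessel wall, and later it restricts monocyte genes and guides neutrophil, lymphocyte, inner ear and secretory gut cell fates. It is not a gene of normal lung epithelium.

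The introduced gene checked the labels. GFI1 (ENSG00000162676) lies on chromosome 1, from 92473043 to 92486925 on the minus strand of GRCh38. Its CPM, a count scaled to a fixed library size with TMM factors, was 0.238, 0.543 and 0.631 in the 3 control libraries and 290.4, 294 and 286 in the 3 GFI1 libraries. Every GFI1 library was far above every control library, as labelled, and the control libraries held only 4, 10 and 11 counts. The log2 fold change was 9.23 ± 0.21 (SE; edgeR quasi-likelihood test, Benjamini-Hochberg adjusted p 3.68e-22). Total counts of the attached libraries ran from 17014188 to 20748677. Attached replicates of a group differed by more than counting noise, with chi-square values per gene from 2.007 to 3.755. Pairs of floating GFI1 libraries, which enter the shared estimate of spread, differed more, from 4.827 to 11.82. KRT8 and KRT18, the keratin pair of simple epithelium, and KRT7 were abundant, whereas EPCAM was at 2.25 ± 0.451 and KRT19 at 1.11 ± 0.36 CPM in control cells (SD, n = 3). Of 6 blood markers, 5 had 3 counts or fewer in each attached library, and ITGAM was at 0.948 ± 0.188 CPM in control and 0.683 ± 0.112 CPM in GFI1 cells. These are bulk libraries, so fewer cells of a type and less RNA per cell cannot be told apart.

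Of 17829 genes tested, 11102 passed the adjusted p threshold of 0.05 between attached GFI1 and control cells, which is 62.3%. The genes higher in GFI1 cells numbered 5258 (29.5% of those tested) and the lower ones 5844 (32.8%). With a change of at least 2-fold required as well, 3247 genes remained (18.2%), 1730 higher and 1517 lower. The CPM ranges of the groups did not overlap for 11948 genes (67.0%). Counts for any list below are to be read against these shares and against those of like genes. Of protein-coding genes tested, 30.8% rose and 38.05% fell. In the quintile of tested genes with the highest mean level, 29.92% rose and 51.79% fell. The share of higher genes among the 11102 was 47.4% with TMM scaling but 61.5% when libraries were scaled by library size only, which moved the median log2 fold change of all genes from -0.007 to 0.14. Changes below are relative to the TMM scale. "Rose" and "fell" are used for genes past the threshold of edgeR's quasi-likelihood test, all levels are CPM given as mean ± SD with n = 3 libraries per group, control first, and changes are log2 fold changes ± SE of GFI1 over control. List medians moved by at most 0.002 when genes at the detection floor (no library of a group above 3 counts) were entered at their bound.

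**Figure D1:**
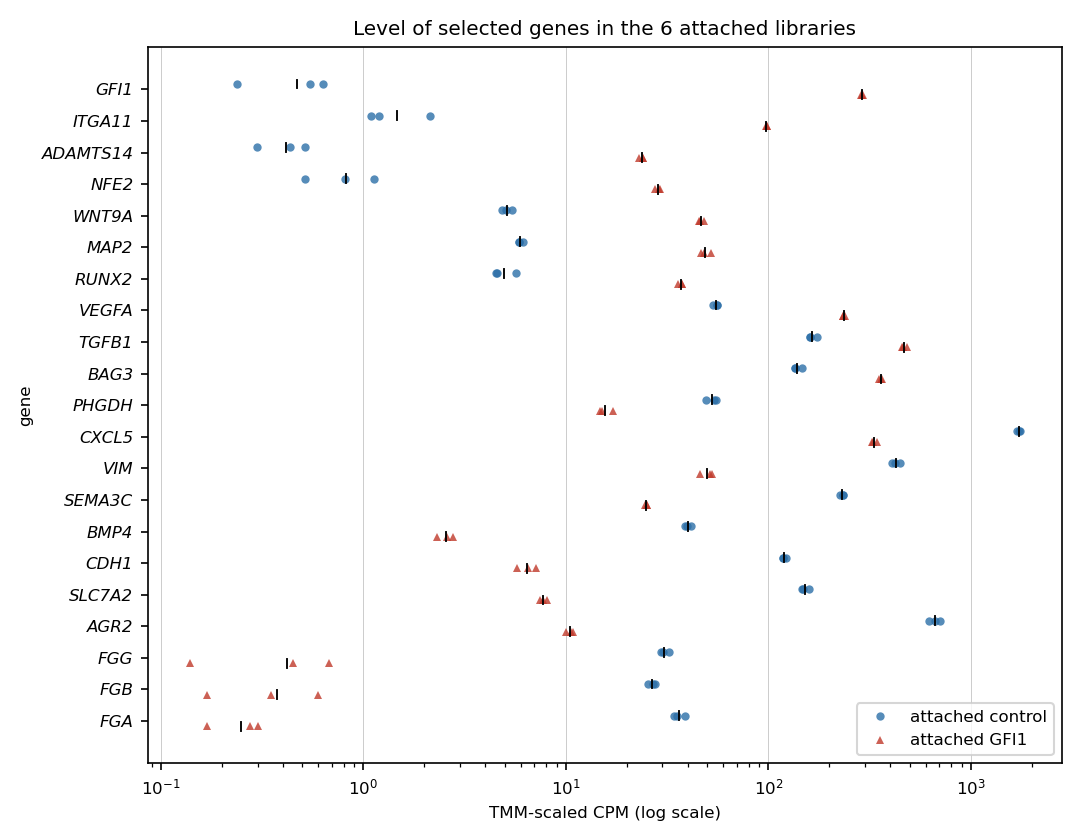
Level of 21 genes in each attached library, as CPM on a log axis; circles are the 3 control and triangles the 3 GFI1 libraries, and black ticks are group means. For each gene plotted the groups do not overlap, from GFI1 at the top (mean 0.471 against 290.1 CPM) to FGA at the bottom (mean 36.2 against 0.249 CPM).

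The strongest losses among protein-coding genes with a mean log2 CPM of 1 or more are given first. AGR2, a protein disulfide isomerase of mucus-secreting cells, was at 703, 622 and 665 CPM in the control libraries and 10, 10.8 and 10.6 CPM in the GFI1 libraries. The groups were far apart, and the change was -5.98 ± 0.10 (edgeR adjusted p 3.23e-25). CEACAM6, a surface glycoprotein of glandular epithelium, went from 198, 187 and 192 CPM to 1.86, 2.03 and 2.9 CPM, a change of -6.40 ± 0.10. KRT4, a keratin of mucosal surfaces, fell from 23.5 ± 1.73 to 0.166 ± 0.248 CPM (-7.21 ± 0.26), and the value was -9.58 without attached GFI1 replicate 1, the only GFI1 library with more than 1 count. AP1M2, the epithelial subunit of the AP-1 sorting complex, fell from 33.8 ± 0.355 to 0.986 ± 0.175 CPM (-5.10 ± 0.12). FRAS1, a basement membrane protein, fell from 45.4 ± 0.879 to 1.42 ± 0.11 CPM (-5.00 ± 0.10), and B3GALT5, a galactosyltransferase that builds epithelial Lewis antigens, from 16.3 ± 0.953 to 0.465 ± 0.185 CPM (-5.09 ± 0.17). TRIML2, RNFT2 and ABTB3 were the other strong losses at that level outside fibrinogen, at -5.99 ± 0.19, -5.21 ± 0.22 and -5.06 ± 0.10.

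The strongest gains were chosen at the same level. ITGA11, the collagen-binding integrin alpha 11 of mesenchymal cells, was at 1.19, 1.09 and 2.12 CPM in control and 98, 98.4 and 97 CPM in GFI1 libraries, with no overlap and a change of 6.06 ± 0.11 (edgeR adjusted p 4.17e-24). TCN1, the vitamin B12 carrier of neutrophil granules and secretions, rose from 0.844 ± 0.301 to 59.8 ± 2.58 CPM (6.15 ± 0.12). ADAMTS14, a procollagen-processing protease, rose from 0.416 ± 0.111 to 23.7 ± 0.697 CPM (5.81 ± 0.16). Several of the others encode immune proteins, and whether these gains belong to the interferon response was not tested. TNFSF13B, the B cell factor BAFF, changed by 5.51 ± 0.16, CASP1, the inflammasome protease, by 5.25 ± 0.19 (5.84 without attached control replicate 1), APOL3 by 5.65 ± 0.19, and KLRC2, a natural killer cell receptor, by 5.93 ± 0.15. LGALS9B and LGALS9C, near copies of galectin 9, changed by 6.69 ± 0.10 and 6.74 ± 0.19, and reads shared between such copies, or between KLRC2 and its neighbours in the KLRC family, could be split by the counting. MUC19, a gel-forming mucin, completed the strongest gains at 5.79 ± 0.20.

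Fibrinogen, the clotting precursor that hepatocytes secrete into plasma, was lost almost completely. A549 cells are known to make some liver-type plasma proteins, and the 3 fibrinogen chains FGA, FGB and FGG are encoded side by side on chromosome 4. Of the liver-type genes that fell, 11 have a promoter in the RefSeq table (GRCh38.p14, 250 bases before to 50 after the start), and AATCACNGC, an extended GFI1 core searched on both strands, was not found in these windows, which says only that the letters are not there.

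FGA was at 38.8, 34.2 and 35.6 CPM in the control libraries and 0.169, 0.277 and 0.3 CPM in the GFI1 libraries. FGB went from 25.4, 27.6 and 26.9 CPM to 0.169, 0.6 and 0.35 CPM, and FGG from 32.3, 30.1 and 29.4 CPM to 0.676, 0.138 and 0.451 CPM. In each of these genes all 3 GFI1 libraries lay below 1 CPM and all control libraries above 25 CPM. The changes were -7.12 ± 0.15 for FGA, -6.08 ± 0.19 for FGB and -6.22 ± 0.19 for FGG (edgeR adjusted p 1.06e-22, 1.61e-19 and 1.01e-19). Of 24 liver-type plasma proteins tested, 13 fell and 3 rose, with a median of -0.97 against -0.007 over all genes. ITIH2, a hyaluronan-binding plasma protein, fell from 13.9 ± 0.983 to 0.103 ± 0.0527 CPM, at least 91.4-fold lower since the GFI1 libraries held 3 counts or fewer each, and LBP, which carries bacterial lipopolysaccharide, was at least 21.5-fold lower from 3.28 ± 0.596 CPM. APOH fell from 16.1 ± 1.39 to 3.03 ± 0.329 CPM. Not every liver product fell. RBP4, the retinol carrier, rose from 5.36 ± 0.795 to 26 ± 0.453 CPM (2.28 ± 0.10), HABP2, a plasma protease, by 1.11 ± 0.15, and ALB, albumin, to 1.85 ± 0.103 CPM, at least 10.8-fold higher.

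The transcription factors of this lineage split. Of 26 endodermal factors tested, 12 fell and 7 rose (median -0.356). FOXA2, a pioneer factor of endoderm, fell from 66.3 ± 3.08 to 34.1 ± 2.76 CPM (-0.96 ± 0.06), whereas its relative FOXA1 rose by 0.86 ± 0.09. TCF7L2, a WNT effector, fell by 1.83 on the log2 scale. HNF4A, the master factor of hepatocytes, was at 4.52 ± 0.539 CPM in control and 8.6 ± 0.713 CPM in GFI1 cells and rose (0.93 ± 0.15), as did NR5A2, which drives bile acid genes, from 32.9 ± 0.632 to 86.9 ± 3.58 CPM (1.40 ± 0.06). The losses in fibrinogen went with lower FOXA2 and with higher HNF4A, and their part in those losses was not tested.

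Complement genes moved both ways, inflammatory cytokines mostly fell and the interferon-stimulated genes of a comparison list rose. C3, the central complement protein, went from 460.3, 496 and 470.0 CPM to 90.6, 90.7 and 83.3 CPM, with every GFI1 library below every control library, a change of -2.43 ± 0.06 (edgeR adjusted p 1.27e-21). C5 fell by 1.66 on the log2 scale. C4A and C4B, which share nearly all their sequence so that reads cannot be assigned with certainty, rose, C4A by 3.10 ± 0.40 and C4B to 3.96 ± 0.792 CPM, at least 23.1-fold higher. CD55, which dissociates convertases on the cell surface, rose by 0.42 ± 0.06. Of 18 complement genes, 7 rose and 6 fell.

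CXCL5, a neutrophil-attracting chemokine, was at 1759, 1686 and 1733 CPM in control and 327, 344 and 329 CPM in GFI1 libraries. The ranges were far apart, and the change was -2.37 ± 0.05 (edgeR adjusted p 1.95e-22). CXCL8, the main human neutrophil attractant, fell from 73.6 ± 4.2 to 30.4 ± 0.435 CPM (-1.28 ± 0.06), CXCL1 by 1.00 and CXCL2 by 1.07 on the log2 scale. IL18, an inflammasome cytokine, fell from 49.1 ± 3.35 to 8.85 ± 0.936 CPM (-2.47 ± 0.09), the direction opposite to that of CASP1, the protease that activates it. CCL2, which attracts monocytes, fell from 8.05 ± 1.29 to 1.22 ± 0.362 CPM, and TNFSF15 was at least 34.3-fold lower. CXCL16 rose from 14.6 ± 1.4 to 40.8 ± 2.07 CPM, CSF1, the macrophage growth factor, from 60.3 ± 3.46 to 119 ± 1.51 CPM, and CX3CL1 was at least 7.66-fold higher. Of 21 chemokines and cytokines, 13 fell and 7 rose (median -1.07). Of 38 interferon-stimulated genes listed for comparison, 38 rose (median 2.85). That list was chosen with earlier results of these data known and does not stand for every interferon-stimulated gene. The paper names GBP1 among the genes that GFI1 lowered in A549 cells.

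Epithelial structure genes and mesenchymal genes both held strong losses and some gains. CDH1, E-cadherin of the adherens junction, was at 118, 119 and 122 CPM in control and 6.48, 5.77 and 7.11 CPM in GFI1 libraries. No GFI1 library came near the control range, and the change was -4.22 ± 0.07 (edgeR adjusted p 3.23e-25). VIM, the mesenchymal intermediate filament vimentin, fell as well, from 449, 422 and 408 CPM to 52.7, 46.1 and 51.3 CPM (-3.09 ± 0.11), and so did CDH2, N-cadherin, by 1.71 on the log2 scale. KRT8 fell from 5769 ± 148 to 1853 ± 47.6 CPM (-1.64 ± 0.05) and KRT18 from 2670.5 ± 139.7 to 662 ± 6.18 CPM (-2.01 ± 0.05). Members of this group that rose included JUP, plakoglobin, from 189 ± 5.85 to 504 ± 8.43 CPM, PPL, periplakin, from 32.8 ± 4.91 to 167 ± 5.88 CPM and KRT16, a keratin of stressed epidermis, from 0.188 ± 0.0788 to 3.73 ± 0.487 CPM. Of 36 keratin and junction genes, 21 fell and 9 rose (median -0.292).

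Among mesenchymal genes, 10 of 23 rose and 7 fell. COL5A2, a fibrillar collagen chain, fell from 257 ± 4.67 to 26.8 ± 2.08 CPM (-3.26 ± 0.06) and FN1, fibronectin, from 1553 ± 74.3 to 678 ± 9.99 CPM. The transition factors SNAI1 and FOXC2 rose by 1.89 ± 0.15 and 2.60 ± 0.19, and S100A4 rose from 467 ± 25.8 to 826 ± 46.7 CPM. Summed CPM of the fibroblast markers was 12.6 to 14.3 in the control libraries against 6.26 to 7.44 in the GFI1 libraries. Most of this sum was COL1A1, at 12.1, 13.9 and 13 CPM in control and 6.87, 6.32 and 5.91 CPM in GFI1 libraries. PDGFRA did not pass the threshold (edgeR adjusted p 0.589), and LUM and DCN were at 0 in all of these libraries. Of 18 alveolar and airway markers, 9 rose and 3 fell, and at 2-fold or more 3 rose and 3 fell. The membrane mucin MUC1 rose from 7.81 ± 1.23 to 28.8 ± 0.899 CPM (1.89 ± 0.10) and MUC16 from 5.05 ± 1.43 to 15.6 ± 0.397 CPM, while TP63, the basal cell factor, fell from 14.2 ± 0.636 to 1.92 ± 0.262 CPM.

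**Figure D2:**
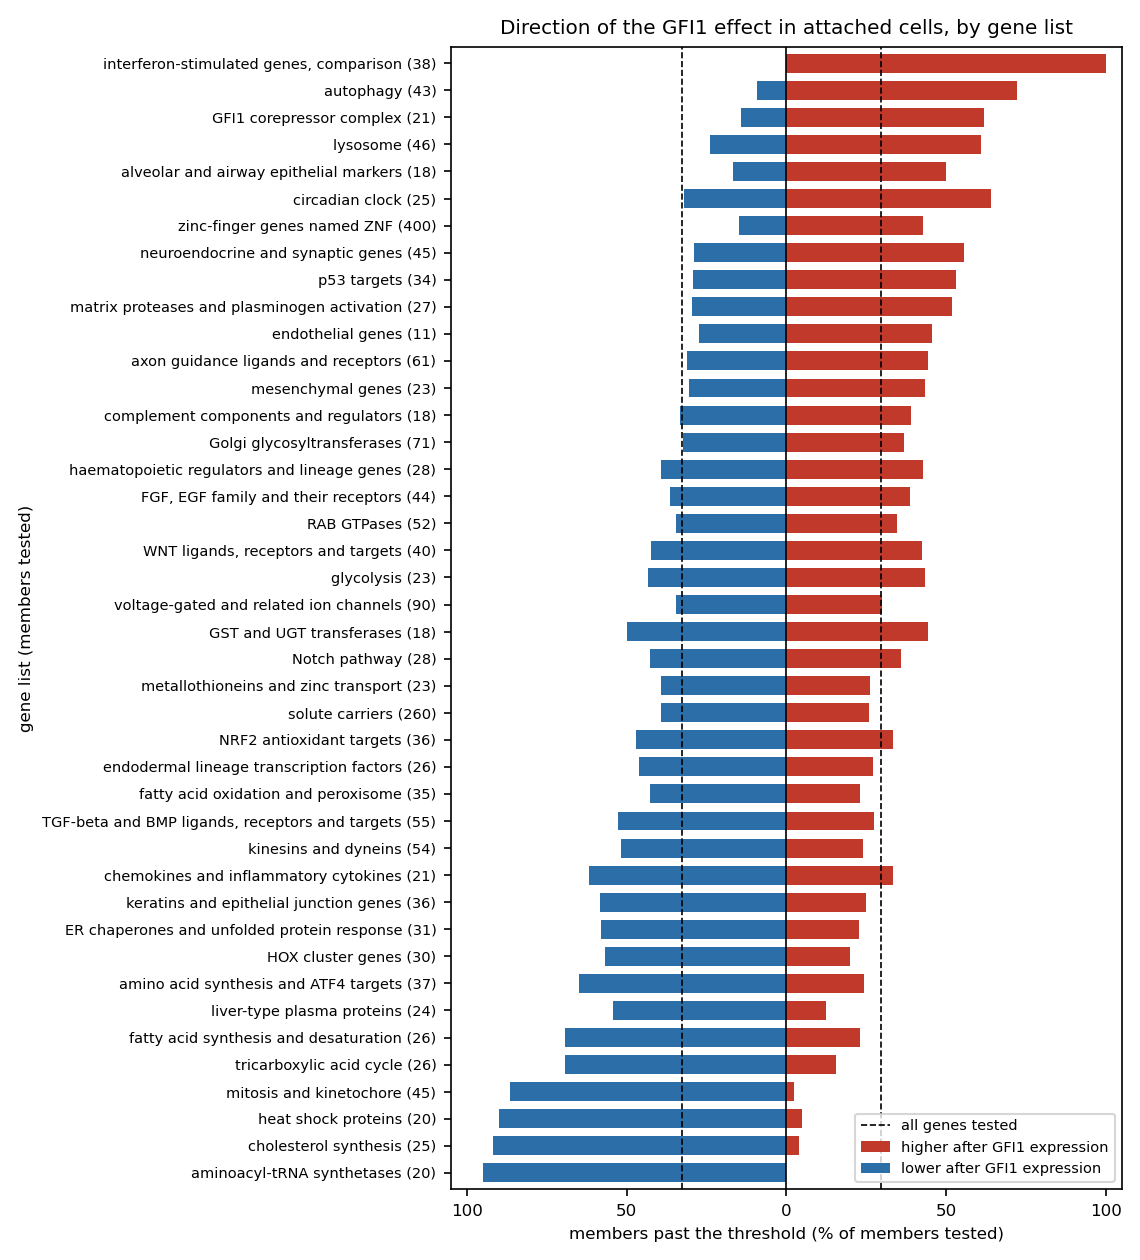
Share of tested members that rose (red, to the right) or fell (blue, to the left) in attached GFI1 cells for 42 gene lists, as percent, with the number tested in brackets; dashed lines mark 29.5% and 32.8% of all genes tested. tRNA synthetases, cholesterol synthesis, heat shock and mitosis genes lie at the lower end, and autophagy, corepressor and lysosome genes below the interferon-stimulated comparison list at the upper end.

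Cholesterol synthesis fell almost throughout. The pathway builds cholesterol from acetyl-CoA and is switched on by SREBP-2 when membranes lack sterol. Of 25 genes tested, 23 fell and 1 rose (median -0.659), and with library size only the numbers were 23 and 2. HMGCS1, an early synthase of the pathway, went from 163, 176 and 166 CPM to 88.7, 82 and 83 CPM, a separation with no overlap and a change of -0.99 ± 0.05 (edgeR adjusted p 1.69e-14). DHCR7, a last step, fell from 163 ± 8.95 to 88.8 ± 3.04 CPM (-0.87 ± 0.05). SREBF2, which encodes SREBP-2 itself, fell less, from 184 ± 2.19 to 146 ± 3.75 CPM (-0.33 ± 0.04). TM7SF2, a sterol reductase, was the member that rose (0.88 ± 0.07).

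Fatty acid synthesis moved the same way in most steps, with 18 of 26 members lower and 6 higher (median -0.499). ACLY, which makes cytosolic acetyl-CoA from citrate, was at 638, 695 and 645 CPM in control and 246, 242 and 251 CPM in GFI1 libraries, well separated (-1.42 ± 0.05, edgeR adjusted p 7.08e-19). The desaturase SCD fell from 1577 ± 31.8 to 821 ± 1.68 CPM, the synthase FASN from 781 ± 7.68 to 499 ± 16.8 CPM and the elongase ELOVL5 from 193 ± 5.83 to 74.7 ± 2.88 CPM. The acyl-CoA synthetases, which activate fatty acids, moved in both directions. ACSL3 fell from 262 ± 7.26 to 88.7 ± 3.47 CPM (-1.56 ± 0.05) and stayed above ACSL5. ACSL5 rose from 3.26 ± 0.394 to 23.8 ± 0.74 CPM (2.87 ± 0.11) and ACSL1 by 0.51 ± 0.05. Oxidation genes split, 15 of 35 lower and 8 higher, but 12 lower and 14 higher by library size only. PPARGC1A, the coactivator of mitochondrial oxidation, fell from 12.3 ± 0.884 to 2.06 ± 0.217 CPM (-2.57 ± 0.14), PDK4, which blocks glucose carbon entry into mitochondria, from 302 ± 8.25 to 79.8 ± 2.97 CPM (-1.92 ± 0.06), and ACOX2, a peroxisomal oxidase, from 17.9 ± 0.846 to 1.99 ± 0.286 CPM. CPT1A, which imports fatty acids into mitochondria, rose by 0.35 ± 0.04.

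Glucose use genes changed in both directions, 10 of 23 glycolysis members higher and 10 lower. The regulatory enzyme PFKFB3, which makes the activator of phosphofructokinase, went from 497, 516 and 509 CPM to 96.8, 96.3 and 92.2 CPM (-2.42 ± 0.08), all GFI1 libraries lying far below the controls. PFKM fell from 81.4 ± 2.29 to 17.5 ± 1.99 CPM, ENO1, an enolase, from 3350.2 ± 61 to 1442 ± 33.7 CPM and HK2, an inducible hexokinase, from 3.85 ± 0.0959 to 0.493 ± 0.257 CPM. Transport across the membrane moved up at both ends, with the glucose importer SLC2A1 rising from 196 ± 4.33 to 439 ± 12.1 CPM (1.16 ± 0.08) and the lactate exporter SLC16A3 from 60.5 ± 2.48 to 179 ± 8.57 CPM (1.57 ± 0.08). HK1, the constitutive hexokinase, rose by 0.64 ± 0.04. In the tricarboxylic acid cycle, 18 of 26 members fell and 4 rose (median -0.293). FH, fumarase, fell from 118 ± 2.15 to 59.4 ± 1.63 CPM and PDHB by 0.72 on the log2 scale, whereas IDH2, the mitochondrial NADP-dependent dehydrogenase, rose from 81.8 ± 2.75 to 189.6 ± 7.44 CPM (1.21 ± 0.08).

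Serine synthesis and the tRNA charging enzymes fell. PHGDH, PSAT1 and PSPH make serine from a glycolytic intermediate, and SHMT2 passes its carbon on to folate. PHGDH went from 54.9, 49.5 and 53.7 CPM to 15, 17.1 and 14.8 CPM, without overlap (-1.75 ± 0.07, edgeR adjusted p 7.72e-17). PSAT1 fell from 261 ± 4.25 to 82.6 ± 0.956 CPM (-1.66 ± 0.05), PSPH by 1.22 and SHMT2 by 1.01 on the log2 scale. Of 37 genes of amino acid synthesis and of the stress factor ATF4, 24 fell and 9 rose (median -0.407). ATF4 mRNA itself went from 250.1 ± 11 to 189 ± 3.64 CPM (-0.40 ± 0.05). Of 20 cytosolic aminoacyl-tRNA synthetases, 19 fell (median -0.518, with 17 lower and 1 higher by library size only), led by YARS1, the tyrosine enzyme, from 157 ± 0.789 to 75.1 ± 1.7 CPM (-1.06 ± 0.05), and by IARS1 and KARS1 (-0.66 ± 0.04 and -0.61 ± 0.04).

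In the ATF4 list, VEGFA, the vessel growth factor, was at 56, 53.1 and 55.5 CPM in control and 235, 239.6 and 235 CPM in GFI1 libraries, with no overlap (2.11 ± 0.13, edgeR adjusted p 1.43e-13). ATF3, a stress-induced repressor, rose from 5.31 ± 0.901 to 16.6 ± 0.385 CPM, and CEBPB, a factor of acute-phase responses, by 0.65 ± 0.07.

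**Figure D3:**
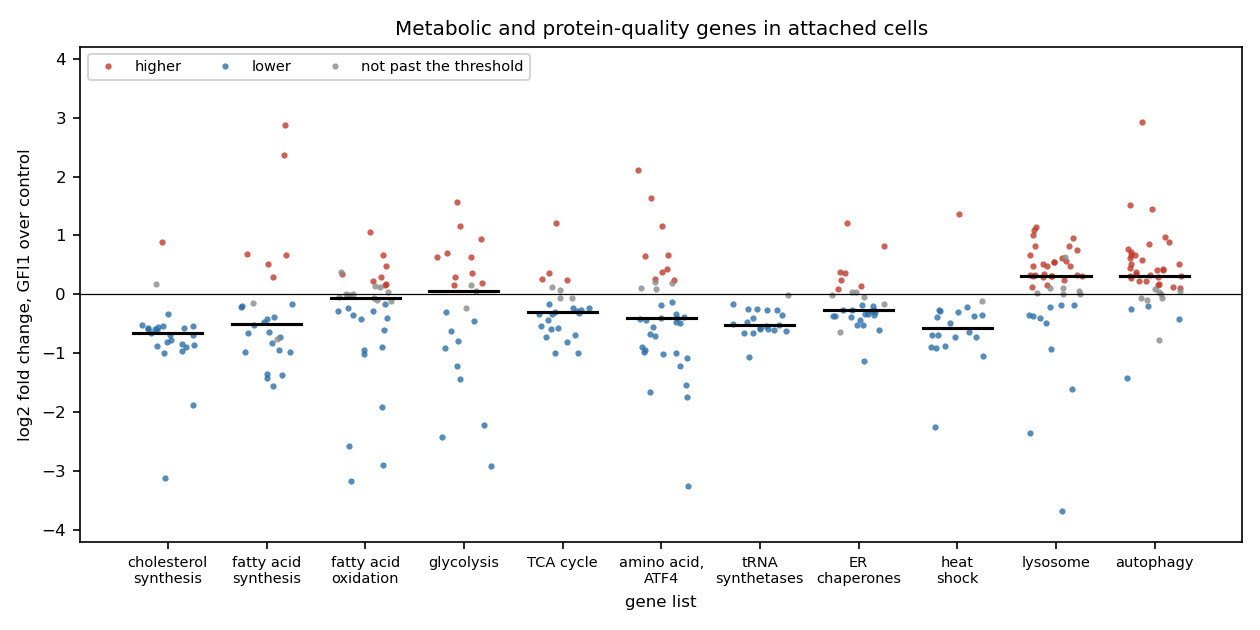
Log2 fold change of GFI1 over control for each tested member of 11 metabolic and protein-quality lists; red and blue points rose or fell, grey points did not pass the threshold, and black lines are list medians. Medians run from -0.659 for cholesterol synthesis to 0.317 for autophagy, the highest of the lists plotted.

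Chaperones fell and degradation genes rose. Of 20 heat shock and chaperone genes of the cytosol and mitochondria, 18 fell and 1 rose (median -0.567). HSP90AB1, the constitutive HSP90, fell from 1760.4 ± 35.7 to 1093 ± 20.5 CPM, HSPD1, the mitochondrial chaperonin, from 831 ± 30.8 to 452 ± 23.9 CPM and DNAJB1, an HSP70 cochaperone, from 185 ± 6.71 to 89.6 ± 3.22 CPM (-1.05 ± 0.04). The member that rose was BAG3, which hands HSP70 clients to autophagy, at 146, 135 and 136 CPM in control and 364, 359 and 352 CPM in GFI1 libraries with no overlap (1.37 ± 0.05, edgeR adjusted p 7.38e-19). In the endoplasmic reticulum, 18 of 31 folding genes fell and 7 rose (median -0.272). XBP1, the factor spliced in the unfolded protein response, fell from 153 ± 7.6 to 69.8 ± 3.51 CPM and PDIA4 by 0.52 on the log2 scale, while EDEM3, which marks misfolded glycoproteins for removal, rose from 57 ± 1.83 to 132 ± 3.57 CPM (1.21 ± 0.05).

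Autophagy encloses cell contents in membranes for delivery to lysosomes. Of 43 autophagy genes, 31 rose and 4 fell (median 0.317, with 35 and 2 by library size only). SQSTM1, the receptor p62, was at 759, 697 and 753 CPM in control and 1415, 1551 and 1378 CPM in GFI1 libraries (0.98 ± 0.05, edgeR adjusted p 1.62e-15), all GFI1 values above all control values. ULK1, the initiating kinase, rose from 110.2 ± 1.36 to 188 ± 3.93 CPM and TP53INP1 from 22.1 ± 1.79 to 60.1 ± 1.39 CPM, while ATG16L2 fell by 1.43 and ATG3 by 0.20 on the log2 scale, ATG3 losing its call by library size only. Of 46 lysosomal genes, 28 rose and 11 fell (median 0.31). The proteases CTSD and CTSF rose from 226 ± 22.7 to 483 ± 5.83 CPM and from 36.5 ± 2.29 to 80.9 ± 2 CPM, and TFEB, the factor that switches on lysosomal genes, from 8.47 ± 1.44 to 17 ± 0.955 CPM (1.00 ± 0.11). Its relative MITF fell by 2.35 on the log2 scale. CTSS, the cathepsin of antigen-presenting cells, went the opposite way to CTSD, from 18.5 ± 0.663 to 1.44 ± 0.0859 CPM (-3.67 ± 0.12), and NPC2, a cholesterol carrier, fell by 0.92.

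A549 cells carry a KEAP1 mutation and so express NRF2 targets at high levels without stress. These targets did not move together, 17 of 36 lower and 12 higher, but 11 lower and 15 higher by library size only. AKR1B10, an aldo-keto reductase, was at 3273, 2982 and 2988 CPM in control and 479, 485 and 480.3 CPM in GFI1 libraries, which do not overlap (-2.68 ± 0.05, edgeR adjusted p 3.32e-23), whereas its relative AKR1C1 rose from 654 ± 33.4 to 1386 ± 56.8 CPM (1.08 ± 0.05). ALDH3A1, an aldehyde dehydrogenase, rose from 2583 ± 31.9 to 4955 ± 123 CPM (0.94 ± 0.04) and the orphan receptor NR0B1 from 44.5 ± 3.52 to 155 ± 1.59 CPM (1.80 ± 0.05). GPX2, a glutathione peroxidase, fell from 158 ± 8.72 to 36 ± 1.23 CPM (-2.13 ± 0.08) and CYP4F11, a fatty acid hydroxylase, from 19.8 ± 1.31 to 4.59 ± 0.342 CPM. NRF2's own gene NFE2L2 changed by 0.62 ± 0.05. The NRF2 motif TGACNNNGC was found in 9 of the 25 promoters of this list in the table (36%), against 15.2% of promoters of genes tested, as a description. Of 18 glutathione and glucuronosyl transferases, 8 rose and 9 fell. MGST1 fell from 455 ± 23.4 to 216 ± 7.18 CPM and GSTA4 by 1.51 on the log2 scale, while GSTM3 rose by 1.06 ± 0.11, and reads can be shared within the GSTM and UGT1A families.

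Of 45 mitosis genes, 39 fell and 1 rose (median -0.351). ECT2, which positions the cleavage furrow, fell from 323 ± 1.33 to 131 ± 4.95 CPM (-1.30 ± 0.05), CDC25B from 441 ± 17.9 to 259.8 ± 4.63 CPM and BIRC5, survivin, by 0.69 on the log2 scale. SPC24 was the member that rose, by 0.18 ± 0.07, a call lost with DESeq2, without the low-count filter and without any 1 of attached control replicates 2 or 3 or GFI1 replicates 1 or 3. Of 34 p53 targets, 18 rose and 10 fell (median 0.161). GADD45A, a growth arrest gene, rose from 34.6 ± 2.56 to 81.4 ± 1.04 CPM and SUSD6 by 1.34 ± 0.06, whereas PLK2 fell from 176 ± 2.1 to 46.9 ± 1.41 CPM and the death receptor TNFRSF10B from 246 ± 1.93 to 104 ± 4.39 CPM. Among 25 clock genes, 16 rose and 8 fell (median 0.42). BMAL1, the activator of the loop, rose by 1.08 ± 0.08 and its partner NPAS2 fell by 0.92 on the log2 scale, while the loop's repressor NR1D2 rose by 0.65 ± 0.06. Of 23 zinc-handling genes, 6 rose and 9 fell, or 9 and 6 by library size only. Metallothionein MT2A rose from 228 ± 36.7 to 586 ± 59.7 CPM and the zinc exporter SLC30A1 by 0.65 ± 0.04, and the importers SLC39A10 and SLC39A4 fell by 0.76 and 0.71.

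Genes of secreted signals rose and fell in each family described below. For comparison, 30.8% of protein-coding genes tested rose and 38.05% fell. TGF-beta and BMP ligands are made as latent or antagonised proteins, so binding partners matter beside ligands. BMP4 was at 38.7, 39.7 and 41.3 CPM in control and 2.76, 2.58 and 2.3 CPM in GFI1 libraries, with no overlap (-3.97 ± 0.11, edgeR adjusted p 1.55e-20), and its antagonist CHRD, chordin, rose from 0.559 ± 0.259 to 11.2 ± 0.991 CPM (4.33 ± 0.23). TGFB2 fell from 72.1 ± 1.37 to 10.4 ± 1.64 CPM (-2.78 ± 0.08) and TGFB1 rose from 165 ± 7.42 to 468 ± 14.9 CPM (1.51 ± 0.06). The latency proteins divided likewise, LTBP4 falling from 267 ± 4.56 to 62.4 ± 2.07 CPM and LTBP3 rising from 291 ± 4.82 to 859 ± 32.6 CPM. Of 55 genes of the family, 29 fell and 15 rose (median -0.265). ID3, a direct BMP target that blocks helix-loop-helix factors, fell from 238 ± 17.1 to 61.4 ± 4.49 CPM (-1.96 ± 0.06).

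WNT genes split evenly, 17 of 40 higher and 17 lower. The ligand WNT9A rose from 4.82, 5.43 and 5.05 CPM to 48.2, 45.8 and 45.4 CPM (3.18 ± 0.08), clear of the control range, and the coreceptor LRP5 from 195 ± 9.73 to 541 ± 6.26 CPM. The secreted antagonist SFRP1 rose from 47.1 ± 0.498 to 339 ± 9.02 CPM (2.85 ± 0.06), while AXIN2, a feedback target of beta-catenin, fell from 35.4 ± 1.52 to 11.2 ± 0.109 CPM (-1.66 ± 0.08), as did the ligand WNT7B (-1.14 ± 0.05) and the receptor ROR1 (-1.75 ± 0.09). Of 28 Notch pathway genes, 10 rose and 12 fell, or 12 and 9 by library size only. Among receptors, NOTCH1 and NOTCH2 fell by 0.69 and 1.49 on the log2 scale and NOTCH3 rose by 0.86 ± 0.05. LFNG, the fringe enzyme that alters ligand choice, rose from 13.4 ± 0.938 to 61.7 ± 2.71 CPM.

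Growth factor receptors and ligands changed in both directions. The receptor FGFR1 fell from 320.4 ± 3.73 to 78.7 ± 1.39 CPM (-2.03 ± 0.04), ERBB2 from 88.6 ± 1.19 to 24.4 ± 1.2 CPM (-1.86 ± 0.06) and FGFR4 from 36 ± 2.52 to 9.51 ± 0.457 CPM, while FGFR3 rose by 1.34 ± 0.07. PDGFB, a ligand for stromal cells, rose from 7.2 ± 0.577 to 53.4 ± 1.33 CPM (2.89 ± 0.12) and PDGFD by 1.43 ± 0.06. Of 44 members, 17 rose and 16 fell. Matrix proteases and their inhibitors leaned up, 14 of 27 higher and 8 lower (median 0.712). MMP7, matrilysin, rose from 38.2 ± 2.41 to 186 ± 6.36 CPM (2.28 ± 0.06), ADAMTS15 by 2.05 ± 0.07, and PLAU, urokinase, fell from 85.1 ± 0.919 to 23.1 ± 0.576 CPM (-1.88 ± 0.06).

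Axon guidance proteins, which also steer vessels and tumour cells, held some of the largest shifts. The secreted semaphorin SEMA3C was at 225, 234 and 233 CPM in control and 24.6, 25.2 and 25.1 CPM in GFI1 libraries. These ranges are far apart (-3.21 ± 0.06, edgeR adjusted p 4.32e-24). Its receptor parts NRP1 and PLXNA2 fell from 403 ± 6.24 to 78.1 ± 0.641 CPM and from 49.5 ± 1.62 to 3.38 ± 0.369 CPM. SEMA3A rose by 1.23 ± 0.04 and SEMA3E by 1.90 ± 0.07, the latter with its receptor PLXND1, from 201 ± 7.87 to 506 ± 3.63 CPM. Of 61 guidance genes, 27 rose and 19 fell (median 0.171). Among 45 neuroendocrine and synaptic genes, 25 rose and 13 fell (median 0.383). MAP2, the dendrite microtubule protein, rose from 5.9, 5.87 and 6.14 CPM to 46.5, 51.9 and 48.3 CPM (3.03 ± 0.09), and the scaffold DLG4 and the exocytosis protein STX1A by 1.07 ± 0.08 and 0.81 ± 0.05. L1CAM, a neural adhesion molecule, fell from 10.5 ± 0.277 to 1 ± 0.133 CPM (-3.37 ± 0.15) and DDC, the dopamine and serotonin enzyme, from 3.98 ± 0.253 to 0.318 ± 0.109 CPM. The defining neuroendocrine factor INSM1 was at 0 in all 6 libraries.

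Some blood and vessel genes rose from low levels. NFE2, a factor of megakaryocytes and red cell precursors, was at 1.13, 0.815 and 0.517 CPM in control and 29.1, 27.6 and 28.9 CPM in GFI1 libraries, with no overlap (5.11 ± 0.14, edgeR adjusted p 1.77e-20). RUNX2 rose from 4.92 ± 0.63 to 37 ± 0.959 CPM (2.90 ± 0.09), GATA3 from 4.4 ± 0.598 to 22.3 ± 1.64 CPM (2.34 ± 0.12) and GATA2 from 5.91 ± 0.247 to 26.9 ± 1.09 CPM (2.19 ± 0.12). CSF3R, the neutrophil growth factor receptor, had 0 counts in the control libraries and reached 4.39, 3.88 and 4.26 CPM, at least 24.4-fold higher. HHEX, ID2 and ID3 fell, by 0.83, 1.12 and 1.96 on the log2 scale. Of 28 haematopoietic genes, 12 rose and 11 fell, and the pan-leukocyte marker PTPRC had at most 1 count in each library. The vessel genes CDH5 and VWF were at least 18.9-fold and 5.04-fold higher, SOX18 rose from 1.81 ± 0.303 to 9.8 ± 1.61 CPM, and ESAM fell by 1.93, with 5 of 11 endothelial genes higher and 3 lower, of which ENG lost its call with DESeq2, with upper quartile scaling, by library size only, without attached control replicate 3 or without any 1 of the GFI1 replicates. Summed endothelial markers stayed low, 0.163 to 0.402 CPM in control and 3.65 to 5.26 CPM in GFI1 libraries, and PECAM1 had at most 4 counts in any of these.

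Positional identity genes of the HOX clusters leaned down, 17 of 30 lower and 6 higher (median -0.416). HOXA3 fell from 24.7 ± 0.729 to 4.19 ± 1.07 CPM (-2.57 ± 0.12), HOXD10 by 3.36 and HOXD9 by 4.24 on the log2 scale, the last becoming -5.15 without attached GFI1 replicate 3. HOXC6 rose by 1.32 ± 0.10 and HOXC10 by 1.04 ± 0.19.

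The partners through which GFI1 represses were present in both groups. Of 21 corepressor genes, 13 rose and 3 fell (median 0.204). KDM1A fell from 115 ± 1.7 to 94 ± 2.28 CPM (-0.29 ± 0.04), HDAC2 changed by -0.24 ± 0.04, a call lost by library size only, and the histone methyltransferase SUV39H1 by -0.44 ± 0.07. PHF21A and GSE1, further parts of LSD1 complexes, rose by 0.86 ± 0.06 and 0.72 ± 0.04, and PIAS3 by 0.68 ± 0.05.

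Promoter windows of 6 genes that hold the extended GFI1 core AATCACNGC are shown, each the 41 bases around the match in GRCh38.p14, in the direction of the gene. They are the 6 lowest log2 fold changes among the protein-coding genes that met the rule for this choice. It asked for a match before the start with 16 bases on each side, a loss of at least 2-fold and at least 20 CPM in control cells. Part of the genome was left out of the choice, so genes with a match and a lower change may exist outside it. RNFT2, among the 12 strongest losses, also holds a match in its promoter window but is not among the genes shown. The fall of the 6 genes follows from the rule and is a description. Capitals mark the match or its reverse complement.
TRIM6, chr11:5596432-5596472, plus strand: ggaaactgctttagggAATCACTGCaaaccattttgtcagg
SEPTIN10, chr2:109614158-109614198, minus strand: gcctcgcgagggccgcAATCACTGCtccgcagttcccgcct
PHACTR2, chr6:143607999-143608039, plus strand: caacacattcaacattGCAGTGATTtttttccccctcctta
PALD1, chr10:70478717-70478757, plus strand: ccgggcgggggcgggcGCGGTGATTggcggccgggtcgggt
PLP2, chrX:49171847-49171887, plus strand: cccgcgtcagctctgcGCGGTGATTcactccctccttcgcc
CHST15, chr10:124093754-124093794, minus strand: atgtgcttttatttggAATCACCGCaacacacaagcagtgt
TRIM6, a ubiquitin ligase, went from 25 ± 2.71 to 2.01 ± 0.58 CPM (-3.62), SEPTIN10, a filament-forming GTPase, from 58.4 ± 2.13 to 9.05 ± 1.09 CPM (-2.69) and PHACTR2 from 32.8 ± 1.2 to 9.48 ± 0.772 CPM (-1.79). PALD1 went from 29.1 ± 2.59 to 8.76 ± 1.42 CPM (-1.73), PLP2 from 209.7 ± 4.7 to 67 ± 3.8 CPM (-1.65) and CHST15, a chondroitin sulfotransferase, from 59.9 ± 2.76 to 20.3 ± 1.64 CPM (-1.56). The core was found in 23 of 1054 promoters of genes that fell at least 2-fold (2.18%), in 9 of 988 that rose at least 2-fold (0.911%), in 36 of 3947 that did not pass the threshold (0.912%) and in 292 of all 27305 (1.07%). No test was made of these shares, and GFI1 binding was not measured here.

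Transcription factors leaned up as a whole, and families differed. Of 1133 genes with a factor family, 468 rose (41.31%) and 303 fell (26.74%), with a median of 0.126. Of 400 genes named ZNF, most of which are repressors with KRAB domains, 171 rose and 60 fell (median 0.18). By library size only, 234 of the ZNF genes rose and 32 fell. The ZNF share that rose, 42.75%, was close to that of all factors, and the ZNF share that fell was lower than theirs. This sets a part against its whole, as the zinc-finger family zf-C2H2 held 475 of the 1133 factors, 208 higher and 79 lower. ZNF703 and ZNF467 rose by 2.01 ± 0.07 and 1.80 ± 0.06, and ZNF516 fell by 2.03 on the log2 scale. Of 46 basic leucine zipper factors, 24 rose and 9 fell, and of 100 homeobox genes, 25 rose and 42 fell, with families taken from the deposited table.

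Transport and membrane traffic genes were among the sharpest single changes. SLC7A2, an importer of arginine and lysine, had the lowest adjusted p of the solute carriers, going from 147, 159 and 148 CPM to 7.72, 8.08 and 7.46 CPM, with no overlap (-4.29 ± 0.06, edgeR adjusted p 4.91e-26). SLC12A2, the sodium-potassium-chloride importer that drives fluid secretion, fell from 353 ± 12.1 to 55.2 ± 3.21 CPM (-2.68 ± 0.05), and SLC44A1, a choline importer, rose by 1.35 ± 0.04. Of 260 solute carriers, 67 rose and 102 fell, which became 93 and 81 by library size only. Among 90 ion channel genes, 27 rose and 31 fell, or 31 and 25 by library size only. The calcium channel subunit CACNA2D1 fell from 79.1 ± 3.57 to 7.18 ± 1.22 CPM (-3.45 ± 0.08).

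Golgi glycosyltransferases gave 26 higher and 23 lower of 71. ST3GAL5, which makes the ganglioside GM3, fell from 73.6 ± 3.43 to 11.6 ± 1.26 CPM (-2.65 ± 0.07), and within the family that starts mucin-type O-glycans GALNT10 fell from 429 ± 11.1 to 122 ± 4.08 CPM while GALNT9 rose from 2.4 ± 0.293 to 42.7 ± 0.399 CPM (4.15 ± 0.10). Of 52 RAB GTPases, which label vesicle types, 18 rose and 18 fell, with RAB31 rising from 72.1 ± 4.21 to 200.4 ± 5.26 CPM, RAB27A, the secretory granule RAB, by 1.48 ± 0.07 while RAB30 fell by 2.09 on the log2 scale. ARHGAP29, which activates GTP hydrolysis by small GTPases, fell from 47.2 ± 2.21 to 1.95 ± 0.186 CPM (-4.59 ± 0.11), and DOCK10, an exchange factor, rose by 1.60 ± 0.06. Of 54 motor protein genes, 28 fell (51.85%) and 13 rose (24.07%), with a median of -0.196. Of protein-coding genes 38.05% fell and 30.8% rose, and of the quintile with the highest mean level 51.79% and 29.92%. KIF12 was at -4.86 ± 0.21 and the neuronal kinesin KIF5A at 3.77 ± 0.21.

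On the TMM scale, the direction of change varied with gene class. Of 13733 protein-coding genes 4230 rose and 5225 fell, whereas of 2539 long noncoding RNAs 678 rose and 350 fell (median 0.219). When all tested genes were divided into quintiles of 3565 or 3566 genes by mean level, 13.80% of the lowest quintile and 51.79% of the highest quintile fell, and 23.33% and 29.92% rose. Among quintiles of protein-coding genes by length, genes that rose numbered 636 in the shortest and 1071 in the longest, and genes that fell 1102 and 952. The part of sequencing depth and of the scaling in these shares was not tested.

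**Figure D4:**
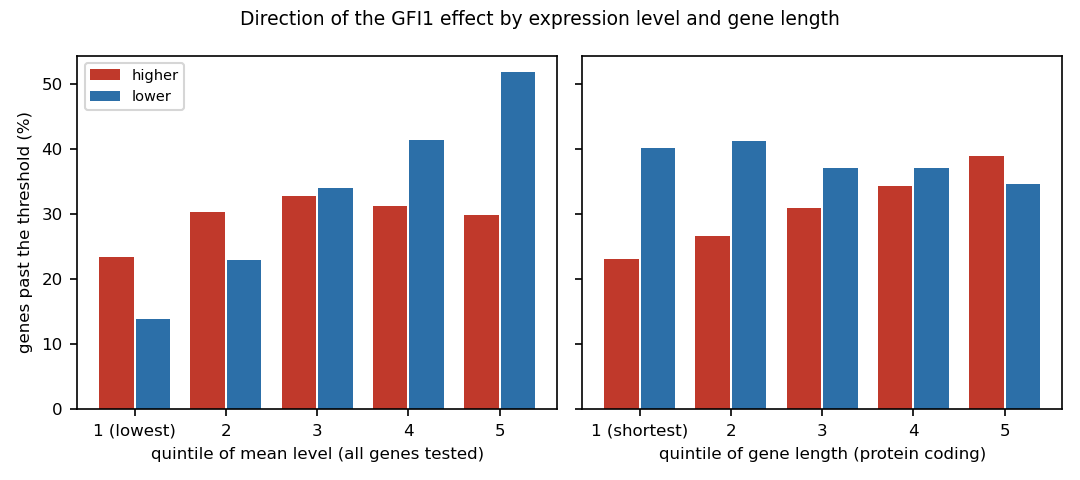
Percent of genes that rose (red) or fell (blue) in attached GFI1 cells by quintile of mean level over all genes tested (left) and by quintile of gene length over protein-coding genes (right). The share that fell increases with level from 13.80% to 51.79%, and the share that rose increases with length.

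Whether each effect differed from that in floating cells was tested as the difference of both log2 fold changes in the shared fit. The difference passed the threshold for 1919 of 17829 genes (10.8%), 1071 higher and 848 lower in attached cells, and for 241 genes at 2-fold or more. The list medians in floating cells were -0.579 for cholesterol synthesis, 0.1 for autophagy and -1.013 for liver-type proteins, against -0.659, 0.317 and -0.97 in attached cells. Of the 25 cholesterol genes 5 differed between the settings, of the 43 autophagy genes 11 and of the 24 liver-type proteins 1. Of the 36 NRF2 targets 15 differed, each with the higher log2 fold change in attached cells. The chemokine CXCL5 and the NRF2 target ALDH3A1 were among the genes that differed. CXCL5 fell by 2.37 in attached and by 3.16 in floating cells on the log2 scale (difference 0.79 ± 0.07, edgeR adjusted p 3.7e-08). ALDH3A1 rose by 0.94 in attached cells and changed by 0.08 ± 0.04 in floating cells (difference 0.86 ± 0.06, edgeR adjusted p 3.96e-10). Its level was 2583 ± 31.9 CPM in attached control and 4955 ± 123 CPM in attached GFI1 cells. In floating cells it was 5017 ± 87.7 CPM in control and 5317 ± 279 CPM with GFI1, so only the attached control level was low.

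CA9, the membrane carbonic anhydrase of hypoxic cells, was at 0.298, 0.326 and 0.459 CPM in attached control and 3.77, 2.86 and 2.65 CPM in attached GFI1 libraries, a rise of 3.07 ± 0.49, against 0.49 ± 0.19 in floating cells. TXNIP, an inhibitor of glucose uptake, rose from 1.49, 1.68 and 1.55 CPM to 7.61, 6.51 and 7.11 CPM (2.16 ± 0.18) in attached cells, with -0.08 ± 0.14 in floating cells. Floating libraries held TXNIP at 7.47, 6.32 and 9.12 CPM in control and 7.28, 6.12 and 8.31 CPM with GFI1. Here too only the attached control level was low. NPTX1, a secreted synaptic pentraxin, showed the opposite order, 3.08 in attached and 6.87 ± 0.31 in floating cells.

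**Figure D5:**
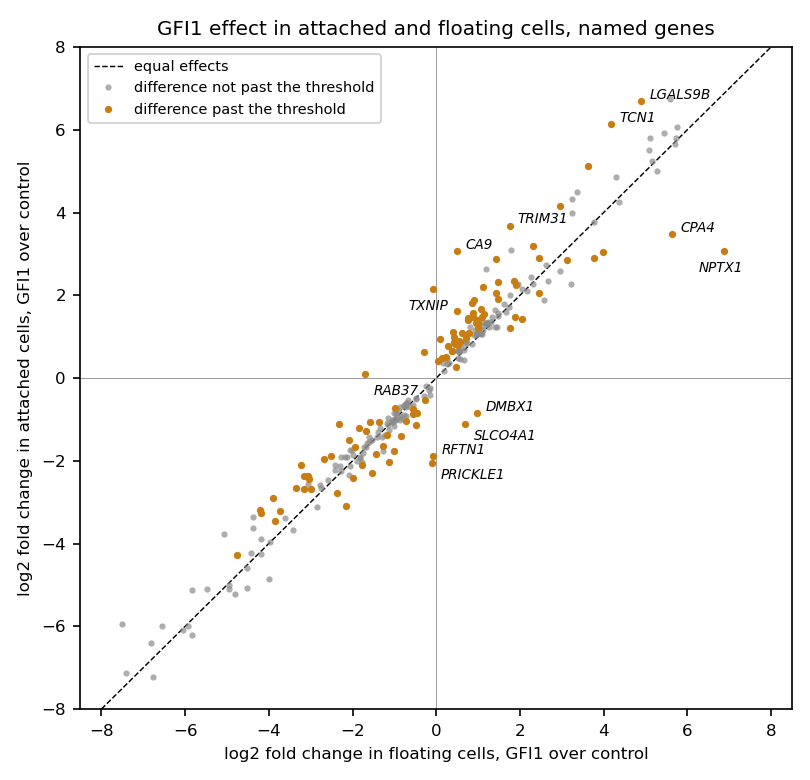
Log2 fold change of GFI1 over control in attached cells (vertical) against floating cells (horizontal) for 275 named genes; orange points passed the threshold for the difference, the dashed line marks equal effects, and the genes with the largest differences are named. CA9 and TXNIP lie above the line and NPTX1 and CPA4 below it.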

How the data were processed

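RNA was extracted with TRIzol, mRNA was selected with poly-T beads, and libraries were sequenced on an Illumina NovaSeq by the authors. The deposited values are raw counts per gene, not normalized. For alignment and counting, the study's methods name Hisat2 and featureCounts on GRCh38, whereas the submitters' processing notes name Bowtie2, HTSeq and hg38. This difference could not be resolved, and the annotation release and strand setting were not given in the sources used here, so overlapping and antisense genes are uncertain. No other column of per-sample values was present. Gene lengths came from the deposited table, and gene types and printed gene positions from GENCODE v44, which held 99.1% of 58735 gene identifiers, and 27 symbols turned into dates in the table were recovered through their identifiers.

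The analysis used edgeR 4.0.16 (R 4.3.3), with filterByExpr on the 4 groups (minimum count 10, minimum total 15), TMM scaling (factors from 0.939 to 0.954 in attached control and from 1.04 to 1.05 in attached GFI1 libraries), and 1 quasi-likelihood fit of 4 group means to 12 libraries (biological coefficient of variation 4.86%). Tests were two-sided with Benjamini-Hochberg adjustment over 17829 genes and a threshold of 0.05. Folds against a group with 3 counts or fewer in each library are lower bounds computed from 3 counts per library, covering counting error only. Replicate numbers were checked for pairing. The code was tested on simulated data. The promoters are RefSeq's (GRCh38.p14), matched by symbol, with 12045 genes tested having one.

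Genes named are GFI1, the 12 highest and 12 lowest protein-coding changes without overlap whose mean log2 CPM reached 1, up to 3 members of each list per direction by adjusted p, the 6 largest differences from floating cells in each direction, and cell type markers. Some genes that the rule names are not reported here. The lists and members were chosen with earlier results of these data known, so they are described by counts and medians without a set test. Genes outside this rule, chosen after their values were seen, are APOH, ITIH2, LBP, HNF4A, CCL2, TNFSF15, CXCL1, CXCL2, CDH2, SREBF2, FASN, SCD, HK2, PSPH, ATF4, TFEB, NFE2L2, GATA2 and CSF3R, together with the 6 genes shown for a GFI1 core. Alternatives were DESeq2 1.42.0, RLE, upper quartile and library size scaling, no low-count filter, 10 counts in every library, only the 2 groups, robust empirical Bayes, a replicate block, a 2-fold minimum and leaving out each library.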

Additional observations from a re-analysis of the deposited data

Results flagged for a closer look

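For 12 genes the effect of GFI1 differed between attached and floating cells in the test of the difference itself, with the largest differences among expressed protein-coding genes. Values are log2 differences, attached minus floating, with adjusted p by edgeR's quasi-likelihood test. The effect was lower in attached cells for NPTX1 (-3.80, adjusted p 1.24e-06), CPA4 (-2.17, 4.94e-06), PRICKLE1 (-1.94, 0.000136), RFTN1 (-1.83, 3.45e-05), DMBX1 (-1.83, 1.28e-06) and SLCO4A1 (-1.79, 0.000137). It was higher in attached cells for CA9 (2.57, adjusted p 0.00248), TXNIP (2.23, 2.57e-07), TCN1 (1.97, 8.47e-07), TRIM31 (1.93, 0.000108), LGALS9B (1.79, 1.24e-06) and RAB37 (1.78, 1.71e-05).

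These differences had several forms. NPTX1, a secreted synaptic protein, and CPA4, a carboxypeptidase, rose in both settings and more in floating cells, at 6.87 against 3.08 for NPTX1 and 5.64 against 3.47 for CPA4. Floating GFI1 replicates 1 to 3 held NPTX1 at 661, 1027 and 309 CPM, so these libraries also differed widely among themselves. PRICKLE1, a planar polarity protein, and RFTN1, a lipid raft protein, fell in attached cells, by 2.04 and 1.89 on the log2 scale, and were at -0.10 and -0.07 in floating cells. SLCO4A1, an organic anion transporter, and the homeobox gene DMBX1 had opposite signs, -1.11 and -0.85 in attached against 0.69 and 0.99 in floating cells. SLCO4A1 was at 46.9, 71.8 and 27.4 CPM in floating GFI1 replicates 1 to 3 against 28.9 to 30.8 CPM in floating control libraries, so replicate 3 did not share the higher level. CA9 was likewise at 20.5, 28.9 and 11.2 CPM in floating GFI1 libraries against 12.9 to 15.4 CPM in floating control libraries. TCN1, LGALS9B and TRIM31 rose in both settings and more in attached cells. RAB37, a secretory vesicle GTPase, fell by 1.69 on the log2 scale in floating cells, and its value in attached cells was 0.09 (edgeR adjusted p 0.712).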

How the results depend on the processing

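With a change of at least 2-fold required as well, the count of genes changed by GFI1 fell from 11102 to 3247, and that of genes differing between attached and floating cells from 1919 to 241. Under the other alternatives the counts stayed within 1.5 times of these. DESeq2 gave 10124 and 1605. Leaving out 1 library at a time gave 10440 to 11358 genes, 1481 to 2090 for the difference, and 8.93 to 9.48 for the log2 fold change of GFI1. Of the 304 named genes, 9 lost their call under some alternative: SPC24, KRT19, ENG, PCDHB6, PCDHB13, TAS2R5, SLC30A4, HDAC2 and ATG3. RAB37, at 0.09, ran from -0.093 without attached GFI1 replicate 2 to 0.175 without attached GFI1 replicate 3, no value past the threshold. The medians of 10 of 45 lists changed sign by library size only, so those lists are given by counts, and those of 3 further lists (haematopoietic, mesenchymal and RAB genes) did so under another alternative. Requiring 10 counts in every library left no value for 53 genes, GFI1 among them, and fitting only the 2 groups left none for 4.

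Replicate numbers were shared across groups, but deviations of same-numbered libraries correlated only from -0.0306 to 0.0311. No shared effect of the number was seen. Whether same-numbered libraries were handled together is not in the labels, and this check cannot decide it. A replicate block gave 11054 and 1904 genes and 9.25 for GFI1, and no named gene changed its call. Depth limits genes near 3 counts per library, for which only bounds are given.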

Other observations

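Some small gene groups were not described above. Of 8 clustered protocadherins of the beta cluster, which give neurons surface identity, 4 rose and 1 fell (median log2 fold change 0.725), with PCDHB5 at 2.65 ± 0.332 CPM in control and 5.45 ± 0.404 CPM in GFI1 libraries (mean ± SD, n = 3). The member that fell, PCDHB6, lost its call with DESeq2 and without attached control replicate 2 or GFI1 replicate 1 or 2, and PCDHB13 lost its call with DESeq2. Reads can be shared within this cluster. Of 10 olfactory and taste receptors tested, 3 rose (30.0%, close to the 29.5% of all genes), TAS2R5 losing its call without attached GFI1 replicate 3 (1.11, edgeR adjusted p 0.0512), with the sweet and umami receptor subunit TAS1R3 going from 0.958 ± 0.374 to 2.29 ± 0.338 CPM. Of 34 genes of the mitochondrial genome that were tested, 16 fell and 3 rose, and of 562 processed pseudogenes 131 fell (23.31%) and 69 rose (12.28%), both below the shares of all genes (32.8% and 29.5%).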
